A study of Mus musculus with 2 samples.

Results

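The 6 genes described here are Csf1r, the receptor for colony-stimulating factor 1, its ligand genes Csf1 and Il34, and 3 related cytokine receptor genes, Csf2ra and Csf2rb for the chains of the GM-CSF receptor and Csf3r for the G-CSF receptor. They were chosen by symbol from the 55450 genes of the deposited matrices, and all 6 were found. Their levels were read in microglia and in the other cell classes of 2 single-cell RNA libraries from adult male C57BL/6J mice. In the awake group 3 mice received saline, and in the anesthesia group the 3 mice were given sodium pentobarbital at 100 mg/kg, a barbiturate that enhances GABA-A receptor currents. Brain cells of both groups were sorted as CD11b-positive and CD45-low, the usual gate for microglia, and captured with a 10x Genomics 3' kit, in which every captured transcript receives a unique molecular identifier (UMI). Each group has 1 library, so no value below has a replicate check, no test was made, and treatment, handling and library cannot be told apart.

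CSF1R is a receptor tyrosine kinase on which microglia depend for survival, proliferation and maintenance in the adult brain. It has a pair of ligands, CSF1 and IL-34. In the brain IL-34 is known mainly as a product of neurons, and CSF1 as a product of glia and of activated microglia. The GM-CSF receptor binds its ligand through the alpha chain encoded by Csf2ra and signals through the beta common chain encoded by Csf2rb, which the receptors for IL-3 and IL-5 share. CSF3R is the receptor that drives neutrophil production in the bone marrow.

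The RefSeq promoter table for GRCm38.p6 held 3 of the 6 genes. These windows are shown because they were the ones available. Csf1 and Csf2ra had the largest differences between the libraries of the measured genes of the set. Each runs 5' to 3' on the gene's strand, from 250 bases before the RefSeq start to 50 after it, and capitals mark motif matches. For Csf2ra and Csf3r the RefSeq start is not the GENCODE start that follows from the coordinates given below. Csf1 is read from chr3:107760420-107760719 on the minus strand, Csf2ra from chr19:61228369-61228668 on the minus strand, and Csf3r from chr4:126024409-126024708 on the plus strand.
Csf1: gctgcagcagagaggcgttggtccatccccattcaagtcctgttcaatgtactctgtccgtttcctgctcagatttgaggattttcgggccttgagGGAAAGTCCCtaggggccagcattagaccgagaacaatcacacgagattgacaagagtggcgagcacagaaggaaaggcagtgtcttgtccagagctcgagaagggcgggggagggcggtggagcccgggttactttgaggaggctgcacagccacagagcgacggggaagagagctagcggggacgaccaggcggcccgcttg
Csf2ra: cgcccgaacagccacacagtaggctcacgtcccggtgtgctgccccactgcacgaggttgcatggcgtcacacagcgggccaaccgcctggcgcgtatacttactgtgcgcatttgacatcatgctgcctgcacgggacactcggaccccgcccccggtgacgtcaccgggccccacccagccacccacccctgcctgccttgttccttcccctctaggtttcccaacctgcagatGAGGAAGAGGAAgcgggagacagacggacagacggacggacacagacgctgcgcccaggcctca
Csf3r: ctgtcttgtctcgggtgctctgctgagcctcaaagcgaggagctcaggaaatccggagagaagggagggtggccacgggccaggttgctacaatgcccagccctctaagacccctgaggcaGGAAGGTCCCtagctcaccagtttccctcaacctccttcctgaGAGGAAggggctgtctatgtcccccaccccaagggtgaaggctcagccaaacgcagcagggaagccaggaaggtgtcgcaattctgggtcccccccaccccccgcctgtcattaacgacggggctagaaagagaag
Both strands were searched for a PU.1 core (GAGGAA), for an AP-1 motif (TGANTCA) and for the NF-kB consensus. PU.1, encoded by Spi1, is a lineage factor of macrophages. The Csf1 window held 1 NF-kB match on the opposite strand, at bases 97 to 106 of the window, and no PU.1 core. The Csf2ra window held 2 PU.1 cores next to each other, at bases 237 to 242 and 243 to 248, with no overlap. Csf3r had a PU.1 core at bases 165 to 170 and an NF-kB match on the opposite strand at bases 122 to 131. No AP-1 letters were present in these 3 windows. Of 32851 promoters of the same length, 28.3% held the PU.1 core, 7.81% the AP-1 motif and 8.46% the NF-kB consensus. A match describes letters and is not a binding site.

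The awake library held 53262885 UMIs in 8600 barcodes and the anesthesia library 61139016 in 9412, with medians of 5883 and 5347 UMIs per barcode, and 14 barcodes occurred in both. Mitochondrial UMIs made up 1.45% of the median awake and 2.26% of the median anesthesia barcode, and the part of this in the ratios below was not tested. After filtering, 7363 awake and 8163 anesthesia cells were microglia-like by their markers, and their summed UMIs came to 47885639 and 56149298. The 10 microglia markers, among them P2ry12 and Tmem119, summed to 20545 CPM (UMIs scaled to a total of 1000000 per library and class) in awake microglia-like cells and to 18377 CPM in those under anesthesia, with none at 0. The summed markers of the 14 other classes ranged from 1.61 to 419.7 CPM in the awake library and from 1.30 to 353.7 CPM in the anesthesia library. Awake cells lay mainly in microglia-like clusters 1 and 2 (3468 and 3351 cells) and anesthesia cells in clusters 0 and 3 (4649 and 3150 cells), so the comparison is largely between different clusters. Over 11383 genes with at least 200 UMIs, called measured here, the median log2 ratio of anesthesia over awake was -0.02, and 90% of these genes lay between -0.83 and 0.94.

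In GRCm38 coordinates with the GENCODE M21 annotation, Csf1r (ENSMUSG00000024621) lies on chromosome 18 from 61100598 to 61132149, and Csf1 (ENSMUSG00000014599) on chromosome 3 from 107741048 to 107760469. Il34 (ENSMUSG00000031750) spans 110741829 to 110805924 of chromosome 8. Csf2ra (ENSMUSG00000059326) is on chromosome 19 from 61223957 to 61228429, Csf2rb (ENSMUSG00000071713) on chromosome 15 from 78325752 to 78353847, and Csf3r (ENSMUSG00000028859) on chromosome 4 from 126024550 to 126044440. All 6 are protein-coding. Exons of Csf1r overlap those of Hmgxb3 on the opposite strand, and exons of Il34 overlap Gm15894 and Gm15895 in the same way. Whether the counting used strand is not given in the sources used here. Hmgxb3 had 986 awake and 1338 anesthesia UMIs in microglia-like cells, against 146617 and 160198 for Csf1r.

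Of the 6 genes, 5 were measured in microglia-like cells and Il34 was not. Csf1 was at least 1.5-fold higher in the anesthesia library, against a background of 13.2% of all measured genes, and Csf2ra was at least 1.5-fold lower, against 12.1%. So 2 of 5 lay beyond 1.5-fold in either direction, where 25.3% of measured genes did. Csf1r, Csf2rb and Csf3r stayed within 1.5-fold. Intervals throughout are 95% intervals for counting error only.

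Csf1r was abundant in the microglia-like cells of both libraries. It stood at 3062 CPM (3046 to 3078) awake and at 2853 CPM (2839 to 2867) under anesthesia. The log2 ratio was -0.10 (-0.11 to -0.09), a ratio larger than that of 43.1% of measured genes. For comparison, the microglial gene P2ry12, an ADP receptor, was at -0.09, and Cx3cr1, the fractalkine receptor, was at 0.05.

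Nearly every microglia-like cell carried Csf1r transcripts. Cells were thinned to 2000 UMIs each, and shallower ones, 103 awake and 123 anesthesia cells, were left out. Csf1r was detected in 99.6% of the 7260 awake cells and in 99.4% of the 8040 cells under anesthesia, and unthinned in 99.96% and 99.95%. The thinned cells had a median of 6 Csf1r UMIs awake and of 5 under anesthesia, with means of 6.08 and 5.60. The central 90% of cells ran from 2 to 11 UMIs awake and from 2 to 10 under anesthesia. The variance was 1.13 and 1.17 times the mean, close to the value of 1 that pure counting gives. The distribution had 1 peak in each library, and the anesthesia curve was moved slightly to lower counts.

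**Figure D1:**
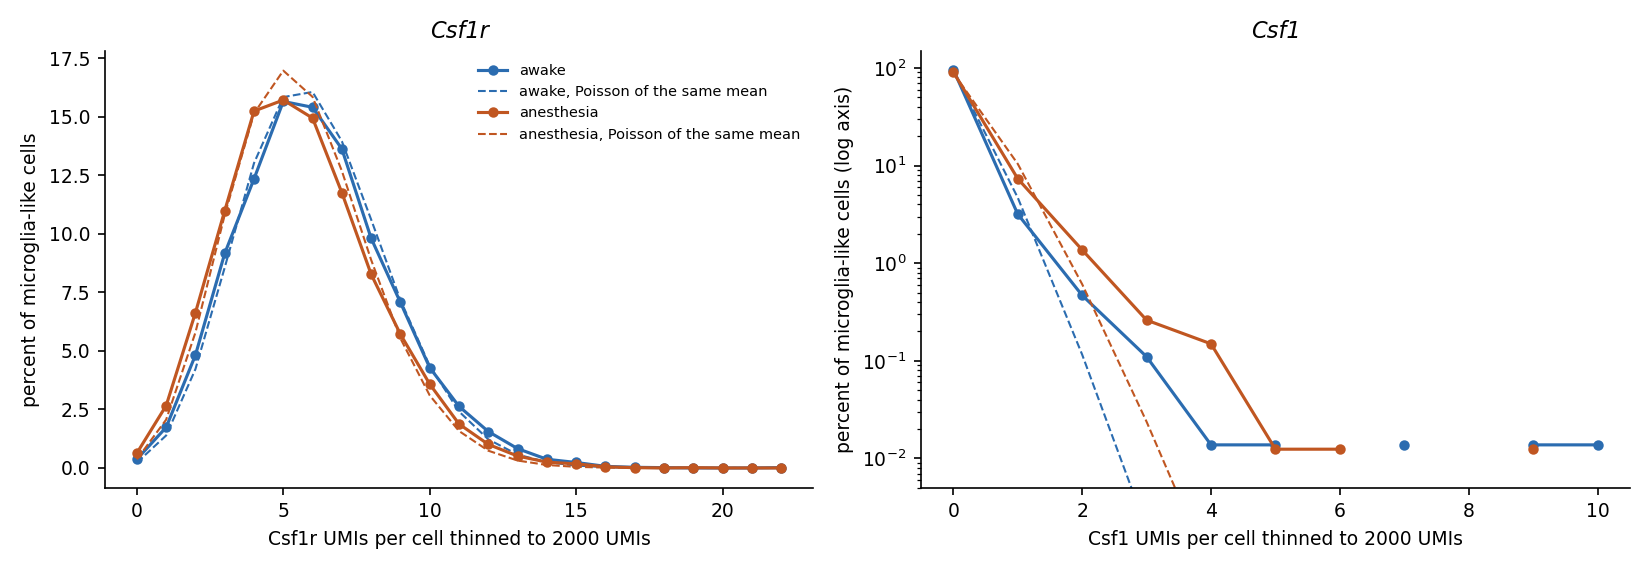
Percent of microglia-like cells (y axis, log scale on the right) by the number of Csf1r (left) and Csf1 (right) UMIs per cell after thinning to 2000 UMIs (x axis), for the awake and anesthesia libraries, with the Poisson curve of the same mean dashed. Csf1r followed a single peak near its medians of 6 and 5 UMIs, while Csf1 was at 0 in most cells and ran past its Poisson curve to 10 and 9 UMIs.

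Across microglia-like clusters Csf1r ranged from 2065 to 3237 CPM. Cluster 6, led by Clec7a, Lgals3, Lpl, Cst7 and Apoe, genes known from disease-associated and lipid-handling microglia, had the lowest Csf1r level of the 6 clusters in each library, with an interval that overlapped that of cluster 3 in the awake library. There it was at 2411 CPM awake and 2065 CPM under anesthesia, against 3097 and 2859 CPM in the other microglia-like cells. Between libraries the Csf1r log2 ratio ran from -0.22 (-0.33 to -0.12) in cluster 6 to 0.07 (-0.01 to 0.16) in cluster 3. The intervals lay below 0 in clusters 0, 1, 6 and 9 and spanned 0 in clusters 2 and 3.

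Border-associated macrophages, the resident macrophages of the meninges and perivascular spaces, also depend on CSF1R. The 57 awake cells of that class had 2258 CPM (2116 to 2406) of Csf1r and the 39 anesthesia cells 2590 CPM (2472 to 2712). Choroid plexus or ependymal-like cells had 942 and 1348 CPM, neutrophil-like cells 599.8 CPM in 22 awake cells and 1870 CPM in 3 anesthesia cells, and endothelial-like cells 385 and 303 CPM. In the order of levels of the named classes, microglia-like cells came first and border-associated macrophage-like cells second in both libraries, with intervals that did not overlap. In the awake library the choroid plexus or ependymal-like class came next, ahead of the neutrophil-like cells. In the anesthesia library the neutrophil-like value was the higher one, but its 142 Csf1r UMIs came from 2 of 3 cells. A counting interval does not measure the spread between cells, so the order of these classes there cannot be told. Endothelial-like cells were lowest in both libraries. The cells of unnamed clusters, 651 awake and 574 under anesthesia, were near the microglia-like level at 2916 and 2819 CPM.

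Microglial RNA was present in every one of these other classes. In endothelial-like cells the 10 microglia markers stood at 5.97% to 11.7% of their microglia-like level in the awake library and Csf1r at 12.6%, and in the anesthesia library at 7.54% to 15.1% with Csf1r at 10.6%. In awake neutrophil-like cells the markers were at 12.6% to 21.5% and Csf1r at 19.6%, and in the 3 anesthesia cells at 37.3% to 91.0% and 65.5%. Choroid plexus or ependymal-like cells had markers at 15.8% to 29.9% with Csf1r at 30.8% in the awake library, and at 40.8% to 52.3% with Csf1r at 47.2% in the anesthesia library. In these 3 classes Csf1r thus lay within the range of the microglia markers, except in awake endothelial-like and awake choroid plexus or ependymal-like cells, where it was just above. The part of microglial RNA in these levels was not tested. Border-associated macrophage-like cells held markers at 49.2% to 79.4% with Csf1r at 73.7% when awake, and at 80.4% to 106% with Csf1r at 90.8% under anesthesia, so their own Csf1r level cannot be read apart from microglial RNA. The thinned share of endothelial-like cells with a Csf1r UMI was 31.5% and 27.6%.

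**Figure D2:**
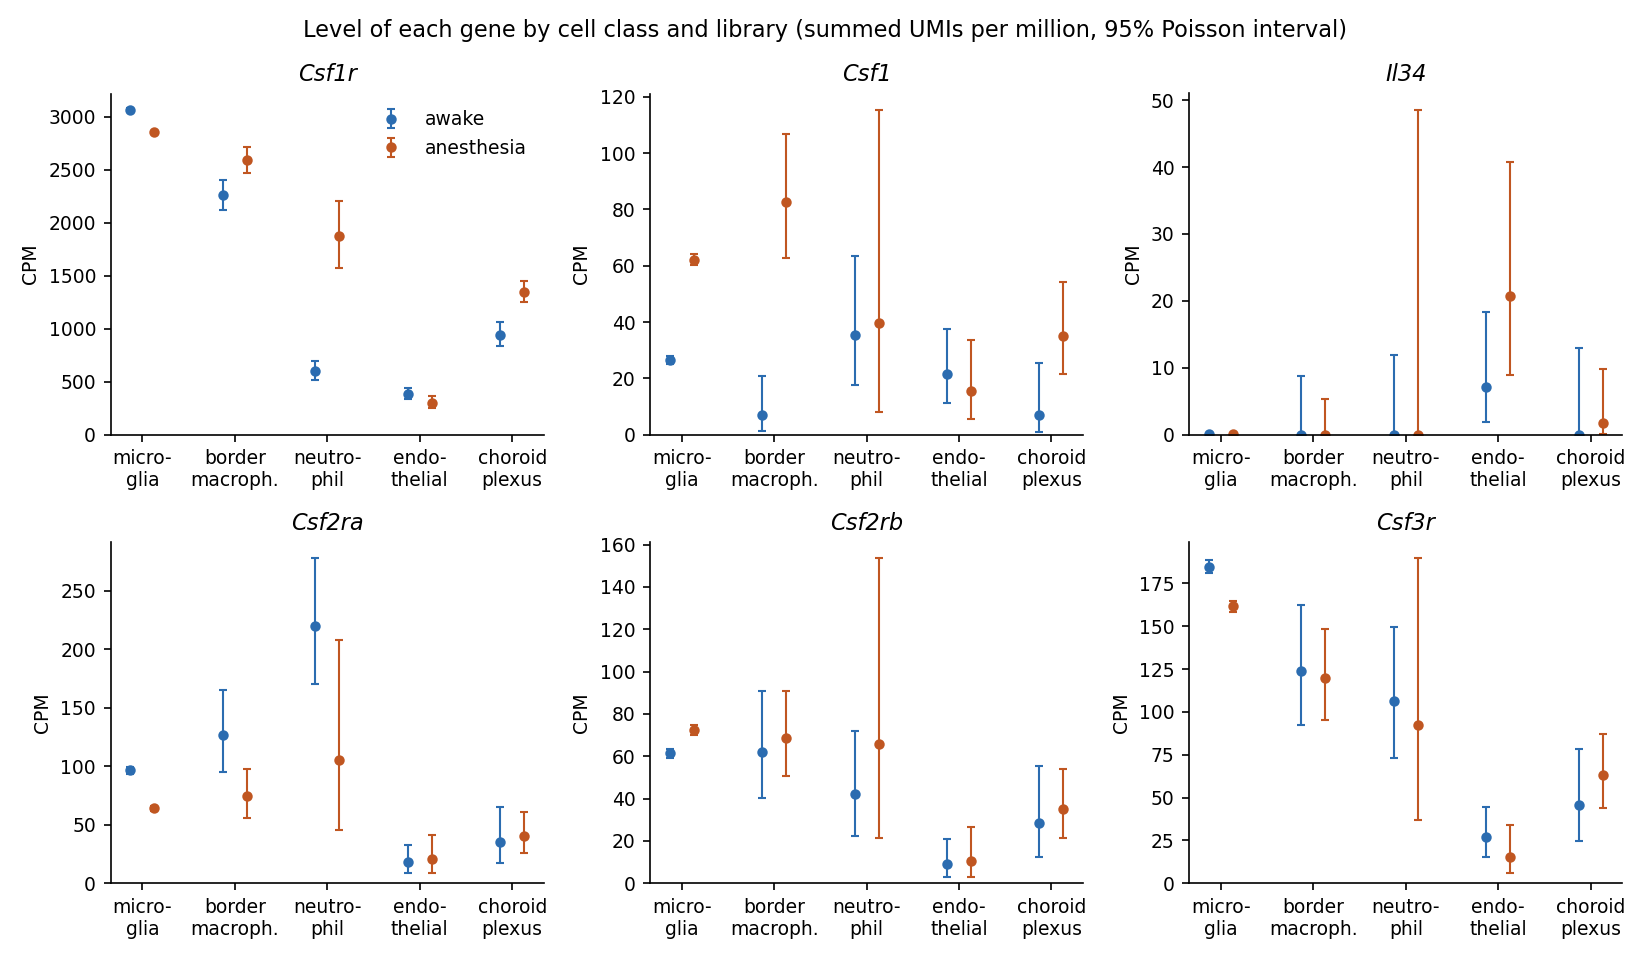
Level of each of the 6 genes (y axis, CPM of summed UMIs, each panel on its own scale from 0) by cell class (x axis) in the awake and anesthesia libraries; bars are 95% Poisson intervals. Csf1r was highest in microglia-like cells, at 3062 and 2853 CPM. Csf1 was higher in the anesthesia library in microglia-like, border-associated macrophage-like and choroid plexus or ependymal-like cells. The choroid plexus or ependymal-like values rest on 2 and 20 UMIs. Il34 was near 0 outside endothelial-like cells.

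Csf1, the ligand gene, differed most of the 5 measured genes. Awake microglia-like cells held 1263 Csf1 UMIs, 26.4 CPM (24.9 to 27.9), and those under anesthesia 3493, 62.2 CPM (60.2 to 64.3). The log2 ratio was 1.24 (1.14 to 1.33), 2.36-fold, and 97.8% of measured genes had a lower ratio. Csf1 transcripts were seen in few cells. After thinning, 3.83% (3.40 to 4.30) of the awake cells had a UMI and 9.15% (8.53 to 9.81) of those under anesthesia, or 9.05% and 22.0% unthinned. The thinned shares in endothelial-like cells were 3.37% (3 of 89) and 1.32% (1 of 76), and the awake interval of endothelial-like cells (0.701 to 9.54) holds the whole awake interval of microglia-like cells. The variance of Csf1 was 1.93 times its mean awake and 1.53 times under anesthesia, with single cells of up to 10 and 9 UMIs.

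In the awake library a large part of the Csf1 UMIs came from cluster 6, whose leading genes by fold include Csf1 although Csf1 was kept out of the genes used for clustering. Its 292 cells, 3.97% of the awake microglia-like cells, held 482 UMIs, 38.2% (35.5 to 40.9) of the awake Csf1 total. In the anesthesia library the same cluster had 56 cells, 0.686% of the class, and 1.92% of the Csf1 UMIs. Csf1 in cluster 6 was at 193.8 CPM in the awake library against 17.2 CPM in the other microglia-like cells, an 11.3-fold difference. Under anesthesia it was at 174.0 CPM against 61.4 CPM, 2.83-fold.

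Between libraries the Csf1 level of cluster 6 itself had a log2 ratio of -0.16 (-0.55 to 0.22), while the level outside it was higher under anesthesia. Without cluster 6 the ratio over all other microglia-like cells was 1.84. Cluster 3, led by Gpr183 and Cirbp, had Csf1 at 19.4 CPM (8 UMIs in 74 awake cells) and 59.3 CPM, a log2 ratio of 1.61 (0.63 to 2.83). The interferon-response cluster 9, led by Ifit3 and Irf7, had 44.1 and 85.7 CPM, a log2 ratio of 0.96 (0.35 to 1.59). Cluster 0, led by Nr4a3 and Csrnp2, had 56.3 CPM (27 UMIs in 72 awake cells) and 62.6 CPM. Clusters 1 and 2, which hold most awake cells, had 17.4 and 14.9 CPM in the awake library, and 25.2 and 24.5 CPM from 12 and 9 UMIs in the anesthesia library. The log2 ratios of clusters 0, 1 and 2 were 0.15, 0.54 and 0.72, with intervals that spanned 0. Pooled within clusters the Csf1 log2 ratio was 0.35, which is under 1.5-fold. This pooled value is not a plain mean of the cluster ratios. It weights clusters by their UMIs in both libraries, and cluster 6 counts most in it. In 5 of the 6 clusters behind the pooled value, 1 of the libraries has under 100 cells.

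**Figure D3:**
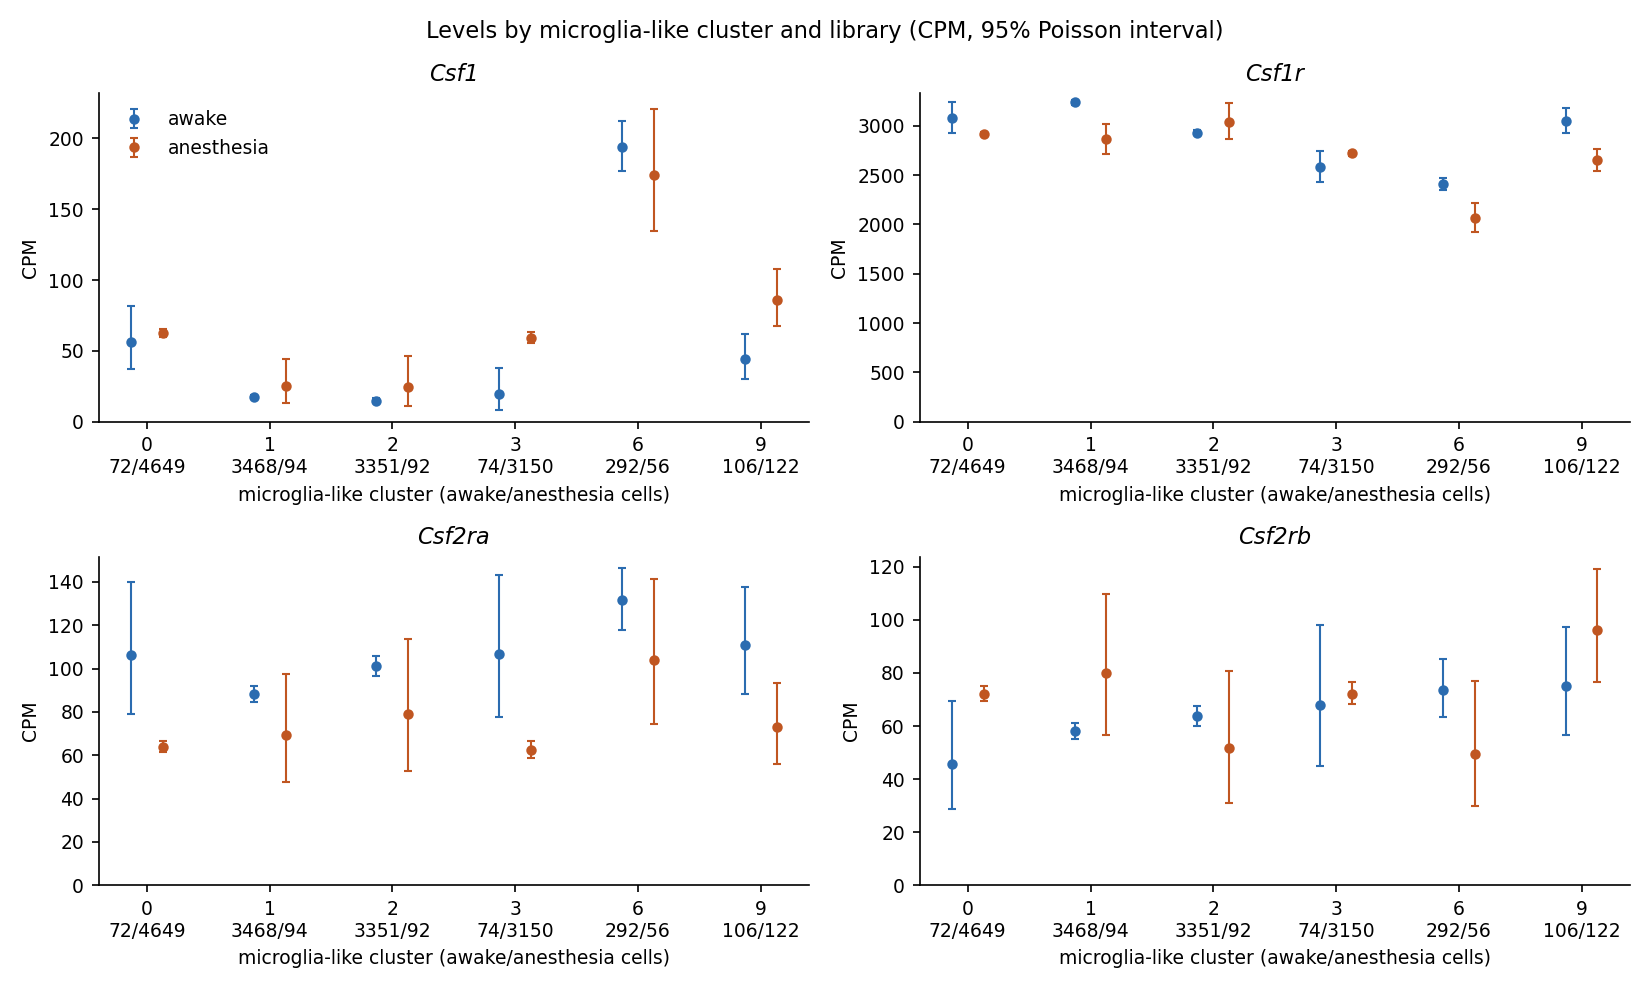
Level of Csf1, Csf1r, Csf2ra and Csf2rb (y axis, CPM from 0) in the 6 microglia-like clusters (x axis, with awake and anesthesia cell numbers) for each library; bars are 95% Poisson intervals. Csf1 stood at 193.8 and 174.0 CPM in cluster 6, led by Clec7a and Lpl, where Csf1r was lowest, and Csf2ra was lower in the anesthesia library in each of the 6 clusters.

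Cells with a Csf1 UMI differed from the others in chemokine transcripts more than in Csf1r. Among thinned awake cells, the 278 with Csf1 had a mean of 8.14 UMIs of Ccl3 and 10.5 of Ccl4, both inflammatory chemokine genes, against 3.70 and 3.91 in the 6982 without. Their Csf1r mean was 5.71 against 6.10. Among anesthesia cells, the 736 with Csf1 had means of 10.5 for Ccl3 and 13.6 for Ccl4 against 8.07 and 9.71, and 5.46 against 5.62 for Csf1r. Outside cluster 6, the 215 awake cells with Csf1 had Ccl3 at 5.25 against 3.51 and Csf1r at 6.15 against 6.14. Tnf followed with 1.31 against 0.825 awake and 2.20 against 1.77 under anesthesia over all microglia-like cells, but outside cluster 6 the awake means were 0.898 and 0.805. Of other genes read in all awake microglia-like cells, Il1b (0.299 against 0.142) and Apoe (2.76 against 1.19) were also higher in cells with Csf1. Fos (3.60 against 4.06), Nfkbiz (2.09 against 2.20) and P2ry12 (3.03 against 3.61) were lower in them. Outside cluster 6 the awake P2ry12 means were closer, at 3.50 against 3.67. There Fos was at 3.73 against 4.07 and Il1b at 0.228 against 0.132. Apoe, a leading gene of cluster 6, and Nfkbiz were not read outside it. Under anesthesia Nfkbiz was higher in cells with Csf1, at 2.81 against 2.65. These are means over cells of 1 library each and have no test, and cells with a Csf1 UMI were slightly deeper before thinning, with medians of 6429 against 6004 UMIs awake and 5750 against 5507 under anesthesia.

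The Csf1 difference was seen across cell depths. From 3000 UMIs per cell upward the log2 ratio was 1.46, 1.31, 1.03, 1.16 and 1.99 in successive depth bins, each with an interval above 0. Below 3000 UMIs it was 0.42 (-0.59 to 1.51), from 13 and 26 UMIs. The deepest bin, from 20000 UMIs, held only 14 awake cells with 6 Csf1 UMIs.

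**Figure D4:**
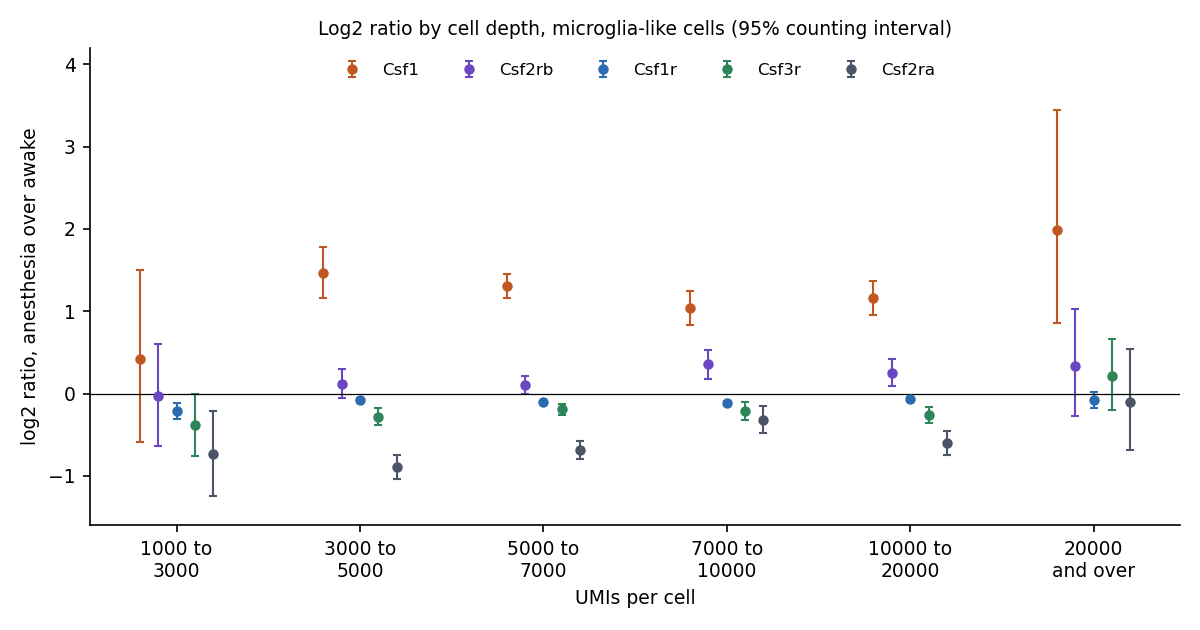
Log2 ratio of anesthesia over awake (y axis) for the 5 measured genes in microglia-like cells grouped by UMIs per cell (x axis); bars are 95% intervals for counting error. Csf1 was above 0 in the 5 bins from 3000 UMIs upward, Csf1r stayed between -0.21 and -0.06, and Csf2ra was below 0 in the 5 bins up to 20000 UMIs.

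In the other classes Csf1 was sparse. Border-associated macrophage-like cells had 3 UMIs in 3 of 57 cells (7.14 CPM, 1.47 to 20.9) awake. Under anesthesia they had 58 UMIs in 22 of 39 cells (82.7 CPM, 62.8 to 106.9), a log2 ratio of 3.53 (1.91 to 5.85). These shares of cells are unthinned. After thinning to 2000 UMIs, 0 of 52 awake cells (0 to 6.85%) and 7 of 39 anesthesia cells (17.9%, 7.54 to 33.5) had a Csf1 UMI. The anesthesia level is 133% of the microglia-like level in that library, where the microglia markers in that class reached 80.4% to 106%. Choroid plexus or ependymal-like cells had 2 and 20 UMIs (7.05 and 35.0 CPM), a log2 ratio of 2.31 (0.27 to 5.45). Endothelial-like cells had 12 and 6 (21.5 and 15.5 CPM), and neutrophil-like cells 11 UMIs in 3 cells and 3 UMIs in 2 cells. In the awake library the intervals of all 4 classes overlapped. Under anesthesia the border-associated macrophage-like interval lay above those of the choroid plexus or ependymal-like and endothelial-like cells. The cells of unnamed clusters had 15.6 and 51.2 CPM of Csf1, a log2 ratio of 1.71 (1.25 to 2.20).

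Il34, the other ligand gene, was barely present. It had 8 UMIs over all awake and 13 over all anesthesia cells. Microglia-like cells held 2 and 3 of them (0.0418 and 0.0534 CPM). Thinned microglia-like cells had no Il34 UMI, 0 of 7260 and 0 of 8040, which allows shares of up to 0.0413% and 0.0373% of cells with a UMI. Endothelial-like cells held 4 UMIs in 2 of 95 awake cells (7.15 CPM, 1.95 to 18.3) and 8 UMIs in 3 of 84 anesthesia cells (20.7 CPM, 8.93 to 40.8). That is 50% and 61.5% of all Il34 UMIs in a class of 95 of 8223 and 84 of 8944 cells. No border-associated macrophage-like or neutrophil-like cell had a UMI. The sort for myeloid cells leaves out nearly all neurons, so these libraries do not describe the main source of IL-34.

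Csf2ra was the one lower gene beyond 1.5-fold, and only just. Awake microglia-like cells held 4615 Csf2ra UMIs (96.4 CPM, 93.6 to 99.2), and 3599 (64.1 CPM, 62.0 to 66.2) were counted under anesthesia. The log2 ratio was -0.59 (-0.65 to -0.53), an interval that spans the 1.5-fold line, and 11.9% of measured genes were lower. Thinned shares of cells were 16.8% (15.9 to 17.6) and 11.6% (10.9 to 12.3), against 3.37% and 2.63% in endothelial-like cells, and unthinned shares 42.4% and 30.7%. Within clusters the log2 ratio was below 0 in each of the 6, from -0.34 in cluster 6 to -0.77 in cluster 3, with intervals apart from 0 in clusters 0, 3 and 9. By cell depth it was -0.73, -0.89, -0.69, -0.32 and -0.60 in the bins up to 20000 UMIs and -0.11 (-0.69 to 0.54) above.

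With the trend of GC content and transcript length removed the Csf2ra ratio was -0.39, under 1.5-fold. So were the values centred on the median gene (-0.57), pooled within clusters (-0.52) and without cluster 6 (-0.57). The neutrophil-like cells had the highest Csf2ra of any class in the awake library, 219 CPM (170 to 278), 228% of the microglia-like level. Markers of neutrophils summed to 52.4 CPM in awake microglia-like cells and to 4.02 CPM in those under anesthesia, with 0 and 3 of the 10 at 0, and their part in the Csf2ra difference was not tested. Border-associated macrophage-like cells had 126 and 74.1 CPM, a log2 ratio of -0.77 (-1.35 to -0.19).

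Csf2rb, the beta common chain, was slightly higher in the anesthesia library. It had 2936 and 4062 UMIs, 61.3 CPM (59.1 to 63.6) and 72.3 CPM (70.1 to 74.6), a log2 ratio of 0.24 (0.17 to 0.31). The alpha and beta chain genes thus lay on opposite sides of 0. Thinned shares were 11.2% and 12.9%, and unthinned shares 29.2% and 32.9%. In clusters the sign varied, with 0.66 (0.05 to 1.33) in cluster 0 and -0.58 (-1.34 to 0.11) in cluster 6. Border-associated macrophage-like cells had 61.9 and 68.4 CPM, and endothelial-like cells 8.94 and 10.3 CPM, 14.6% and 14.3% of the microglia-like level.

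Csf2rb has a close neighbour in the mouse, Csf2rb2, the IL-3-specific beta chain gene on chromosome 15 from 78282507 to 78305721. Of the 50-base windows in the longest Csf2rb transcript, 18.4% also occur in Csf2rb2, and 8.19% of the 90-base windows do, but 0 in its last 500 bases, where 3' tags usually fall. The 924 awake and 1134 anesthesia UMIs of Csf2rb2 gave it a ratio of 0.07 on the log2 scale (-0.06 to 0.19). Any reads from the shared windows leave the Csf2rb count uncertain, and how many there were was not tested.

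The alpha and beta chain genes were seen together in few cells. After thinning, 127 awake cells, 1.75% (1.46 to 2.08), had a UMI of both Csf2ra and Csf2rb, where the product of the separate shares gives 136. Under anesthesia 132 cells, 1.64% (1.38 to 1.94), had both, where the product gives 120. The observed shares include the products in both libraries, so neither an excess nor a lack of such cells was detectable at this depth.

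Csf3r was present in the microglia-like cells of both libraries. Its 8839 awake UMIs came to 185 CPM (181 to 188), and its 9068 UMIs under anesthesia to 161 CPM (158 to 165). The log2 ratio was -0.19 (-0.24 to -0.15), within 1.5-fold. Shares of cells after thinning were 30.2% and 27.1%, and 65.7% and 59.0% unthinned. In endothelial-like cells thinned in the same way, 0 of 89 and 0 of 76 had a UMI, while unthinned 8 of 95 and 4 of 84 did, with levels of 26.8 and 15.5 CPM. Its variance was 1.04 and 1.02 times the mean, the lowest such ratios of the 5 measured genes, at means of 0.368 and 0.320 UMIs per thinned cell. The ratio lies nearer to 1 at low means, so it does not rank the genes by evenness across cells. Neutrophil-like cells, led by the granule genes Camp, Ngp and S100a8, had 106 CPM (73.3 to 149) from 33 UMIs in 22 awake cells, below the microglia-like level. In the clusters the log2 ratio ran from -0.02 in cluster 0 to -0.73 in cluster 6.

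The genes around these receptors were read from 6 lists. CSF1R proximal signalling genes numbered 19 measured, of which 2 passed 1.5-fold upward and 0 downward. Over all measured genes 13.2% were higher and 12.1% lower by that threshold, so the upward count was near the background. Their median log2 ratio was -0.05, against -0.02 over all measured genes. Pik3cg, a catalytic PI3-kinase subunit, was at 0.76 (93.5 and 158 CPM) and Gab2, a docking adaptor, at 0.74 (31.2 and 52.1 CPM), or 0.50 within clusters. Among the most abundant, Tyrobp, the DAP12 adaptor through which CSF1R also signals, was at -0.21, Stat3 at -0.17 and the Src-family kinase Lyn at 0.33. Tyrobp was at 0.07 within clusters. The list of CSF1R shedding, ubiquitination and turnover had 0 of 10 beyond 1.5-fold, where 25.3% of all measured genes were, and a median of 0.23. Ubash3b, a phosphatase of the TULA family, was at 0.15, Rab7, a late endosome GTPase, at 0.23, and Cd33, a sialic acid receptor, at 0.30.

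JAK-STAT and feedback genes of the beta common receptor had 5 of 16 members higher and 1 lower, against 13.2% and 12.1% of all measured genes, with a median of 0.30 against -0.02. Bcl6, a transcriptional repressor, went from 60.5 to 158 CPM, a log2 ratio of 1.39 (1.33 to 1.45). The cyclins Ccnd2 and Ccnd1 were at 1.29 and 0.84, and Myc at 0.83. Jak2, the kinase bound to the beta chain, was at 0.76, and the STAT5 target Cish was the lower one at -0.60, from 303 and 234 UMIs. Both were named after their values were seen. Myc was at 0.22 within clusters, and Ccnd2, with 186 and 532 UMIs, at 0.64 when all cells that passed the filter were summed. Jak1 and Pim1 were both at 0.30 and Socs3 at -0.09. Pim1 was at -0.04 within clusters, while removal of the GC and length trend put Socs3 at 0.09.

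Among 20 BCL2 family and caspase genes, 3 were higher and 2 lower, which is near the 13.2% and 12.1% of all measured genes, and the median was 0.02. Genes of BH3-only proteins, which promote apoptosis by binding BCL2 proteins, were found in both directions. Bcl2l11, which encodes BIM, had 81.7 and 192 CPM, a log2 ratio of 1.23 (1.18 to 1.29). Pmaip1, which encodes NOXA, had 46.7 and 105.5 CPM, a log2 ratio of 1.17 (1.10 to 1.25). Bmf was at 0.69, or 0.28 within clusters. Bad, another BH3-only gene, was lower at -0.92 (-1.02 to -0.81), while the BH3-only genes Bbc3 at -0.32 and Bid at -0.03 stayed within 1.5-fold. The other lower gene was Bax, whose product forms pores in mitochondria, at -0.66. Bbc3, Bid and Bax were named after their values were seen. The survival gene Mcl1 was at 0.04 and -0.10 within clusters, Cflar, which encodes the caspase-8 inhibitor c-FLIP, at 0.50, and Bcl2a1b at -0.23. The Bcl2a1 genes are near-identical copies, and their counts are uncertain.

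Transcription factors known to drive Csf1r had 2 of 13 members higher and 2 lower, near the 13.2% and 12.1% of all measured genes, and a median of -0.13. Mef2a was at 0.81 (613 and 1075 CPM) and Ets2 at 0.69. Cebpa was at -0.79 and Cebpb at -0.64, or -0.58 and -0.34 once the GC and length trend was taken out, both under 1.5-fold. Mef2c was at 0.23, or -0.05 with that trend removed. Spi1, named after its value was seen, was at -0.14.

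Of 15 related ligands and receptors only 6 were measured, 1 higher and 1 lower, where 13.2% and 12.1% of all measured genes were, with a median of -0.03. Kitl, the ligand of the KIT receptor, which belongs to the same receptor tyrosine kinase class as CSF1R, had 27.4 and 59.9 CPM, a log2 ratio of 1.13 (1.04 to 1.22), and 0.47 within clusters. Il3ra, the alpha chain of the IL-3 receptor, had 172 and 117 UMIs, a log2 ratio of -0.79 (-1.14 to -0.44), or -0.57 after removal of the GC and length trend. Trem2 was at -0.26. The ligand genes of the beta common and G-CSF receptors were near 0 in microglia-like cells of both libraries, with 0 and 2 UMIs of Csf2, 1 and 1 of Csf3, and none of Il3 or Il5.

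**Figure D5:**
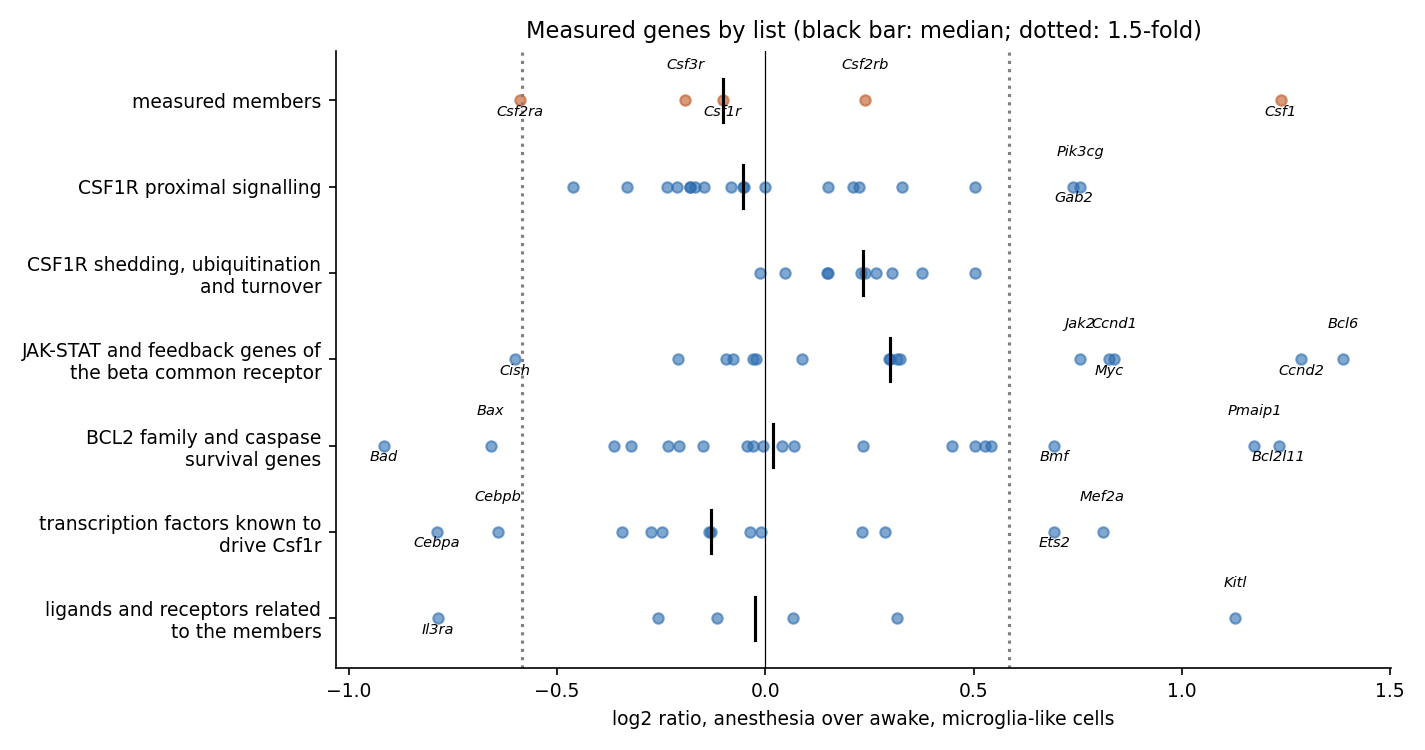
Log2 ratio of anesthesia over awake in microglia-like cells (x axis) for the 5 measured genes of the set and for the measured genes of each of 6 lists (rows); points are genes, black bars list medians and dotted lines 1.5-fold. Csf1 stood at 1.24 and Csf2ra at the lower line, and list medians lay between -0.13 and 0.30.

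The genes with the most similar profiles were sought over 24 profiles, each the summed cells of 1 cluster in 1 library, by Pearson's r of log2(CPM + 1). These profiles share libraries and include clusters of other cell types, so r is given as a description. For Csf1r the nearest were Cd53 (0.99), Unc93b1 (0.99), Lpcat2 (0.99), Fcgr3 (0.98) and Pld4 (0.98). Csf3r was nearest to Cd37 (0.99), Marcks, Scamp2, Sirpa and Evi2a (all 0.97). Csf2ra was nearest to Cd48 (0.98), Cd300a (0.95), Asph (0.95), Abhd12 (0.94) and Ncf4 (0.94), and Csf2rb to Mef2c (0.97), Chd7 (0.97), Map3k14 (0.97), Pag1 (0.97) and Rasa4 (0.96). Csf1 had no neighbour so close, with Gsto1 at 0.81 and Cadm1, Hmga1, Ell2 and Pabpc1 at 0.78. Several profiles held few Csf1 UMIs, such as 8 in awake cluster 3 and 3 in awake border-associated macrophage-like cells. The part of counting error in its lower r was not tested.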

How the data were processed

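Single-cell RNA of sorted mouse brain microglia was read from 2 deposited matrices, 1 awake and 1 anesthesia library. Their values are whole-number UMI counts per gene and barcode, deposited without normalization. Cell Ranger 3.1.0, bcl2fastq and the build GRCm38 are named per the submitters' processing notes, whereas the matrices came from Cell Ranger 4.0.0 per the file headers. Whether mice were pooled before capture is not given in the sources used here.

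Cells were kept with at least 500 genes, 1000 UMIs and at most 10% mitochondrial UMIs, which left 8223 of 8600 awake and 8944 of 9412 anesthesia barcodes. They were clustered with scanpy 1.11.5 and leidenalg 0.10.2 (2000 variable genes, 30 principal components, 15 neighbours, resolution 0.6), with the 6 genes and the pathway lists kept out of the variable genes. Cells outside microglia-like clusters were clustered again at resolution 1. Classes were named from 10 markers for each of 15 classes: microglia-like clusters needed 7 markers seen in 25% of cells, and other classes 3 such markers plus 3 among the 10 genes highest by fold. Scrublet called 0 awake and 1 anesthesia doublets and so had not worked; doublets were left in.

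UMIs were summed per class and library and scaled to CPM. Log2 ratios have exact conditional binomial (Clopper-Pearson) intervals, CPM exact Poisson intervals and shares exact Clopper-Pearson intervals, all at 95% and for counting error only. A count of 0 allows up to 3 counts. Shares were taken after thinning cells to 2000 UMIs. Genes with at least 200 UMIs count as measured, and 1.5-fold was the threshold. With 1 library per group no test was possible. The code was tested on simulated counts. All 55450 gene identifiers matched GENCODE M21. The members, lists and thresholds were chosen with earlier results of these data known. Named were the 6 genes, up to 4 genes past 1.5-fold and the 3 with the most UMIs of each list, and the 5 most similar genes for each measured member. Some results that this rule covers are not reported here.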

Additional observations from a re-analysis of the deposited data

Results flagged for a closer look

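The Csf1r log2 ratio of anesthesia over awake was above 0 in 3 classes and at -0.10 in microglia-like cells. In border-associated macrophage-like cells it was 0.20 (0.08 to 0.31), and in choroid plexus or ependymal-like cells 0.52 (0.31 to 0.72). In neutrophil-like cells it was 1.64 (1.31 to 1.96), from 186 UMIs in the class of 22 awake cells and 142 UMIs in 2 of 3 anesthesia cells. These differences between classes were not tested. Beside them, the median level of the 10 microglia markers in the same cells, as a share of the microglia-like level, went from 56.8% to 87.0% in border-associated macrophage-like cells, from 28.0% to 44.7% in choroid plexus or ependymal-like cells and from 19.7% to 58.0% in neutrophil-like cells. The part of microglial RNA in the Csf1r ratios was not tested.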

How the results depend on the processing

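No paired analysis was possible because each group has 1 library. The log2 ratios of the 6 genes and of the list genes picked by the naming rule were recomputed under 11 alternatives, the last 2 chosen after seeing the data (without cluster 6, and without cells in clusters held mostly by the other library), and no called value among these turned its sign. Genes named after their values were seen were not recomputed. Csf1 ranged from 0.35 to 1.84 and was past 1.5-fold in 10 of 11. It was at 0.35 as a within-cluster ratio and at 1.84 without cluster 6. Csf2ra ranged from -0.65 to -0.39 and was past 1.5-fold in 7 of 11, with -0.65 as the mean of per-cell CPM, -0.39 after removal of the GC and length trend and -0.52 within clusters. Csf1r moved little but beyond its narrow counting interval: to -0.087 with all cells that pass the filter, -0.0877 with all barcodes, -0.12 without cells over 10000 UMIs, -0.084 when centred on the median gene, -0.11 as a per-cell mean, -0.0907 without the GC and length trend, -0.0903 within clusters and -0.12 without cluster 6. Csf3r was at -0.11 without the trend and -0.34 within clusters, and Csf2rb stayed between 0.17 and 0.26. Il34, on 5 UMIs, ranged from -0.0075 to 0.66. Over the 6 lists, 13 genes were higher and 6 lower, with 8 higher within clusters and 2 lower without the trend. Of all genes, 1505 were higher and 1372 lower, 2514 were higher with a minimum of 50 UMIs, and 5861 were higher and 3433 lower among genes with at least 1 UMI in each library, where few counts spread the ratios. The share of cells with a Csf1r UMI was 94.4% awake and 93.4% under anesthesia when thinned to 1000 UMIs, and 99.96% and 99.95% unthinned. For Csf1 these shares were 2.04% and 4.97%, and 9.05% and 22.0%, as follows from the depth kept. The cause of the other shifts was not tested.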
